A study of Mus musculus with 30 samples.

Results

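Potassium channel subunit genes were described in RNA from mouse hearts. They were taken as every row of the deposited expression table whose symbol starts with Kcn, which gave 27 of the 13575 genes in the table. All 27 had a mean of at least 0.5 FPKM (fragments mapped to a transcript, corrected for its length and for the size of the library; the unit the values were read as) and were among the 13256 genes tested. The symbol rule takes pore-forming subunits of voltage-gated, inward rectifier, two-pore, calcium-activated and sodium-activated channels together with the accessory KCNE and KChIP proteins. Kcnab1, Kcnab2 and Kcnma1 were not analysed here.

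Both groups were hearts of mice aged 2 months, collected at ZT10 (10 hours after lights on) with the atria trimmed away. The 3 control libraries are titled RevFloxed_Control, and the other 3 are labelled CM-RevDKO, the study's cardiomyocyte double knockout of the REV-ERB nuclear receptors, which repress transcription and belong to the circadian clock. For the study's ChIP material the labels give the background as aMHC-Cre, present or absent, over floxed Rev-erba and Rev-erbb alleles in both copies. The same text does not name the RNA libraries, so whether the RNA controls lacked Cre was not tested, and an effect of Cre and one of the deletion cannot be told apart. The alpha myosin heavy chain promoter drives Cre in cardiomyocytes, and the other cells of the heart keep both genes. The labels do not say whether replicates were separate animals, so the p-values reflect the spread among these libraries, which may be technical.

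Sequencing depth is unknown; the deposited values summed to between 678722 and 712158 FPKM per library, and 11967 to 12395 genes reached 1 FPKM. Nr1d1, which encodes REV-ERBα, was higher in the libraries labelled CM-RevDKO (mean 50.3 FPKM against 20.5 FPKM), against the label's direction, and Nr1d2, which encodes REV-ERBβ, did not pass the test (mean 27.4 against 35.7 FPKM). Gene-level values that include undeleted exons check nothing about the deletion, so each direction below rests on the labels. The 12 atrial markers listed summed to 380 to 477 FPKM in the controls and 986 to 1800 FPKM in CM-RevDKO. The sum was highest in CM-RevDKO replicate 1. Nppa, 1 of the 12, had a mean of 147 FPKM in the controls and 677 FPKM in CM-RevDKO. Of the 11 tested, 7 log2 fold changes were above zero and 4 below, and only Nppa passed the test. The marker not tested, Bmp10, was listed at 0 in every library but CM-RevDKO 1 (1.94 FPKM). The 12 ventricular markers summed to 30619 to 32954 FPKM in the controls and 30642 to 34439 FPKM in CM-RevDKO, and no defining ventricular marker was absent. The overlapping sums hide differences of single markers, of which 5 log2 fold changes were above zero and 7 below. In CM-RevDKO 3 markers lay wholly above the controls (12.6% of all genes tested) and 4 wholly below (10.5%). Only Mybpc3 passed the test (831 against 532 FPKM, limma adjusted p = 0.0469). CM-RevDKO replicates 1 and 2 also stood apart in mt-Atp8, with 18989 and 19303 FPKM against 8032 to 9769 FPKM in the other 4 libraries. Adipocyte markers (8 of a list of 12 tested) summed to 33.3 to 44.2 FPKM in the controls and to 145, 86.9 and 36.7 FPKM in CM-RevDKO 1 to 3, and their part in the results was not tested. In bulk tissue, fewer cells of a type and less RNA per cell cannot be told apart.

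Potassium channels carry the outward currents that end the cardiac action potential and hold the resting potential. The fast transient outward current, carried by Kv4 pores with the accessory protein KChIP2, begins repolarisation, and delayed rectifier currents complete it. Inward rectifiers set the resting potential and include channels opened by falling ATP or by G proteins, while two-pore channels carry background leak. In the adult mouse ventricle, where the heart rate is high and the action potential short, the transient outward current and sustained voltage-gated currents dominate, and the IKr and IKs currents that matter in larger hearts are small.

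In the libraries labelled CM-RevDKO, 1 of the 27 genes rose and 2 fell. Kcne1, the accessory subunit that slows the KCNQ1 pore to give IKs, rose 6.08-fold in mean FPKM (42.3 ± 4.50 against 6.96 ± 2.28 FPKM, SD, n = 3 per group). Kcnip2, which encodes KChIP2, fell 1.72-fold (29.5 ± 3.98 against 50.9 ± 0.938 FPKM). Kcnv2, a silent subunit that has no current alone and joins other Kv pores, fell 7.01-fold from a low level (0.306 ± 0.0811 against 2.14 ± 0.242 FPKM). Each gene of the table reached 1 FPKM in some library, and Kcnv2 is there through the controls only. Across all genes tested, 1.26% were called higher and 1.24% lower with limma at an adjusted p under 0.05. The 24 other potassium channel genes did not pass.

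The 27 log2 fold changes ran from -1.27 to 2.48 with a median of -0.16, beside a median of 0.02 over all genes tested. Each fold change is CM-RevDKO minus control on the log2(FPKM + 1) scale, which understates the change of low genes. Of the 27, 8 were above zero and 19 below. For 3 genes the CM-RevDKO libraries lay wholly above the controls (12.6% of all genes tested) and for 8 wholly below (10.5% of all genes tested). The 14 genes with a mean under 5 FPKM had a median of -0.32, with 6 wholly below and 1 wholly above. Each gene of the table reached 1 FPKM in at least 1 library, and some of these low genes did so in 1 group only. The 13 genes above that level had a median of -0.02, with 2 wholly below and 2 wholly above.

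**Figure D1:**
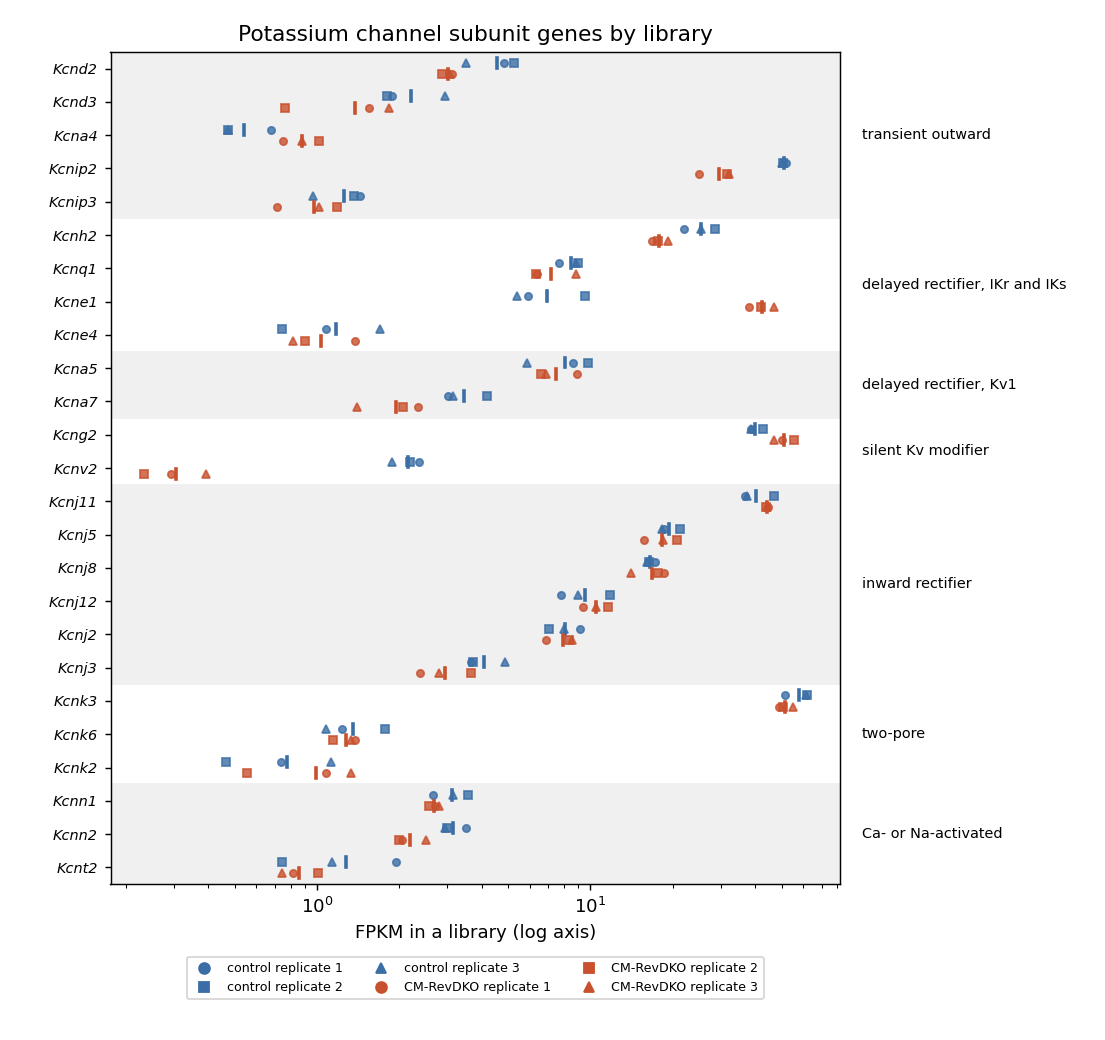
FPKM on a log axis of 25 of the 27 potassium channel genes, grouped by current; symbols are the 6 libraries (blue control, red CM-RevDKO) and short vertical lines the group means. Kcne1 in CM-RevDKO lies far to the right of control, and Kcnip2 and Kcnv2 lie to the left, without overlap.

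**Figure D2:**
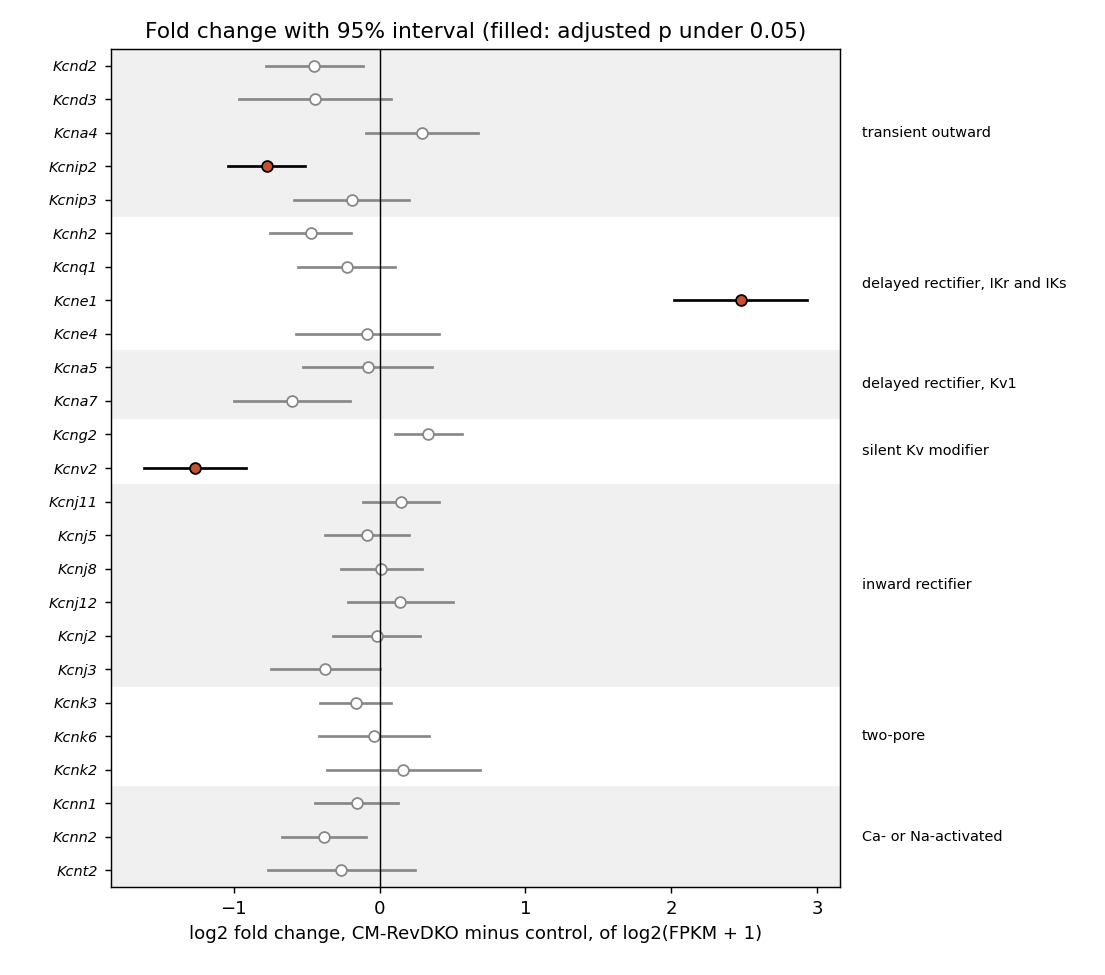
Log2 fold change of 25 of the 27 genes, CM-RevDKO minus control on log2(FPKM + 1), with its 95% interval from limma; filled points have an adjusted p under 0.05. Kcne1 at 2.48, Kcnip2 at -0.77 and Kcnv2 at -1.27 are the filled points.

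Among the 5 transient outward genes, 1 fell, 4 did not pass, and the median log2 fold change was -0.44. Kcnip2 (ENSMUSG00000025221, chromosome 19, 45792346 to 45816422, GRCm38.p6, the patched mm10 build) had values of 52.0, 50.5 and 50.2 FPKM in controls 1 to 3 and of 24.9, 31.5 and 32.1 FPKM in CM-RevDKO 1 to 3. The 3 controls were close together and every CM-RevDKO library lay well below them. The log2 fold change of Kcnip2 came to -0.77 (SE 0.11, 95% interval -1.04 to -0.51, limma adjusted p = 0.0169). The call ended without control replicate 1, 2 or 3 (adjusted p = 0.0893, 0.0697 and 0.0718), without CM-RevDKO replicate 2 (0.0536), without control 2 and CM-RevDKO 1 together (0.0621) and without CM-RevDKO 1 and 2 together (0.151). With atrial markers as a covariate the log2 fold change was -0.52 (limma adjusted p = 0.309). The sums of these markers were wholly apart between the groups, so the covariate also takes up part of the group difference. A call lost with it, here or below, thus decides nothing about atrial tissue.

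The Kv4 pores that KChIP2 accompanies did not pass the test. Kcnd2, the main Kv4 pore of the mouse ventricle, stood at 4.82, 5.27 and 3.51 FPKM in the controls and at 3.11, 2.88 and 3.08 FPKM in CM-RevDKO. The groups did not overlap, though control replicate 3 came close to CM-RevDKO (log2 fold change -0.45, 95% interval -0.78 to -0.11, adjusted p = 0.175). Kcnd3, the second cardiac Kv4 pore, stood at 1.88, 1.80 and 2.94 FPKM in the controls and at 1.54, 0.763 and 1.83 FPKM in CM-RevDKO, and its groups overlapped (-0.44, adjusted p = 0.378). RefSeq places an antisense transcript, which the table lists as 1700095B22Rik, across one end of Kcnd3. It runs from 105448190 to 105452955 and Kcnd3 from 105451890 to 105674002. Without strand their reads cannot be told apart where they overlap.

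Kcna4, the pore of the slow transient outward current, was the one member of this class with a value above zero. It stood at 0.676, 0.471 and 0.471 FPKM in the controls and at 0.751, 1.02 and 0.879 FPKM in CM-RevDKO, without overlap (0.29, adjusted p = 0.435). Its level stayed near 1 FPKM or below in all 6 libraries. Every gene of the table reached 1 FPKM in some library, which Kcna4 did in CM-RevDKO 2 only. Its presence here thus depends on the group where it is higher, so its direction is not evidence of a rise. Kcnip3, another KChIP family member, ranged from 0.967 to 1.43 FPKM in the controls and from 0.715 to 1.19 FPKM in CM-RevDKO (adjusted p = 0.625). Summed over the class, the transient outward genes gave 58.1 to 60.8 FPKM in the controls and 31.1 to 38.9 FPKM in CM-RevDKO, and Kcnip2 made up most of that sum.

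IKr and IKs had 4 genes in the table, of which Kcne1 rose and 3 did not pass (median -0.15). Kcne1 (ENSMUSG00000039639, chromosome 16, 92346001 to 92359468) had 5.92, 9.58 and 5.39 FPKM in controls 1 to 3 and 38.0, 42.0 and 47.0 FPKM in CM-RevDKO. The lowest CM-RevDKO library was well above the highest control. The log2 fold change of Kcne1 came to 2.48 (SE 0.19, 95% interval 2.02 to 2.93, limma adjusted p = 0.00130). By mean FPKM it ranked 13 of 27 in the controls and 4 of 27 in CM-RevDKO, and its share of the summed potassium channel FPKM was 2.08% in the controls and 12.5% in CM-RevDKO. Of 16 alternative settings, 1 ended the call: with CM-RevDKO replicates 1 and 2 both left out, the single remaining library gave a log2 fold change of 2.63 (adjusted p = 0.0749).

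Kcnq1, the pore that KCNE1 joins, did not pass the test. It stood at 7.66, 8.97 and 8.86 FPKM in the controls and at 6.36, 6.34 and 8.88 FPKM in CM-RevDKO, and the groups overlapped (-0.22, 95% interval -0.56 to 0.11, adjusted p = 0.485). Kcnq1 is also overlapped by the noncoding Kcnq1ot1, which is not analysed here. Kcnh2, the pore of IKr, stood at 21.9, 28.6 and 25.4 FPKM in the controls and at 16.7, 17.7 and 19.2 FPKM in CM-RevDKO. Each CM-RevDKO library was below each control, but the test was not passed (-0.47, 95% interval -0.75 to -0.20, adjusted p = 0.0966). Kcne4, an accessory subunit that can inhibit KCNQ1, had 0.746 to 1.70 FPKM in the controls and 0.819 to 1.37 FPKM in CM-RevDKO (adjusted p = 0.888).

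Within 100000 bases of Kcne1, RefSeq places Rcan1 32483 bases away and Smim11 32960 bases away on the other side. Rcan1, a regulator of calcineurin, was also higher in CM-RevDKO, with a mean of 37.5 against 17.4 FPKM (log2 fold change 1.06, adjusted p = 0.00171). Smim11, listed in the table as Fam165b, did not pass (91.5 against 71.2 FPKM, adjusted p = 0.230). Kcne2, a related subunit gene 47868 bases away, is not analysed here. RefSeq also has the noncoding Gm30163, from 92357004 to 92365910, across one end of Kcne1, and without strand their reads cannot be told apart there.

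The Kv1 delayed rectifier genes Kcna5 and Kcna7 did not pass the test. Kcna5, the Kv1 pore of a rapidly activating sustained current, stood at 8.61, 9.78 and 5.85 FPKM in the controls and at 8.94, 6.59 and 6.89 FPKM in CM-RevDKO, and its groups overlapped (-0.08, 95% interval -0.52 to 0.36, adjusted p = 0.876). Kcna7, a Kv1 pore of heart and skeletal muscle, stood at 3.01, 4.18 and 3.13 FPKM in the controls and at 2.35, 2.07 and 1.40 FPKM in CM-RevDKO. Its groups did not overlap (-0.60, SE 0.17, adjusted p = 0.133).

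Silent modifier subunits, which assemble with other Kv pores and alter their gating, had 2 members in the table that lay in opposite directions. Kcnv2 (ENSMUSG00000047298, chromosome 19, 27322061 to 27337179) had 2.36, 2.19 and 1.88 FPKM in controls 1 to 3 and 0.292, 0.232 and 0.393 FPKM in CM-RevDKO. The groups were far apart relative to their spread, at levels where the added 1 shrinks the fold change. Every gene of the table reached 1 FPKM in some library, and Kcnv2 did so in the controls only. Its presence here thus depends on the group where it is higher, so its direction alone is not evidence of a fall. For Kcnv2 the log2 fold change came to -1.27 (SE 0.15, 95% interval -1.62 to -0.91, adjusted p = 0.00718), and -2.48 with a pseudocount of 0.1. The call held with each single library left out. It ended with atrial markers as a covariate (-1.26, adjusted p = 0.168), without control 2 and CM-RevDKO 1 together (0.0665) and without CM-RevDKO 1 and 2 together (0.163).

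Kcng2, the other silent subunit and the second most abundant potassium channel transcript by mean, stood at 38.6, 42.9 and 38.7 FPKM in the controls and at 50.0, 55.6 and 47.0 FPKM in CM-RevDKO. The CM-RevDKO libraries were all above the controls, but the test was not passed (0.33, 95% interval 0.10 to 0.57, adjusted p = 0.147).

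No inward rectifier gene passed among the 6 in the table, of which 1 had an unadjusted p under 0.05 (16.6% of all genes tested), and their median log2 fold change was -0.00. Summed, they gave 93.2 to 107 FPKM in the controls and 97.7 to 106 FPKM in CM-RevDKO. Kcnj2, the main pore of IK1, which holds the resting potential, stood at 9.18, 7.05 and 8.02 FPKM in the controls and at 6.90, 8.38 and 8.58 FPKM in CM-RevDKO. Its groups overlapped, and the 95% interval of its log2 fold change ran from -0.32 to 0.28 (adjusted p = 0.964). Kcnj12, the second IK1 pore, ranged from 7.80 to 11.8 FPKM in the controls and from 9.41 to 11.6 FPKM in CM-RevDKO (0.14, 95% interval -0.22 to 0.50, adjusted p = 0.705).

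The ATP-sensitive channel joins a Kir6 pore to a sulfonylurea receptor. Kcnj11, its ventricular pore, stood at 36.7, 46.7 and 37.3 FPKM in the controls and at 44.8, 44.0 and 44.2 FPKM in CM-RevDKO, with overlap (0.14, 95% interval -0.12 to 0.41, adjusted p = 0.566). Kcnj8, the pore found in vascular smooth muscle and pericytes, stood at 17.3, 16.3 and 16.1 FPKM in the controls and at 18.6, 17.7 and 14.1 FPKM in CM-RevDKO, also with overlap (0.01, 95% interval -0.27 to 0.29, adjusted p = 0.981).

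Abcc9, which encodes the receptor SUR2 and lies 16248 bases from Kcnj8, fell. It stood at 49.9, 52.1 and 48.8 FPKM in the controls and at 29.0, 33.2 and 31.2 FPKM in CM-RevDKO, with a wide gap between the groups (-0.68, SE 0.09, adjusted p = 0.0113). The call ended without control replicate 1 or 2 (adjusted p = 0.0600 and 0.0537), without control 2 and CM-RevDKO 1 together (0.0828), without CM-RevDKO 1 and 2 together (0.151) and with atrial markers as a covariate (-0.54, adjusted p = 0.258). Abcc9 is also a pericyte marker. The 12 markers of smooth muscle and pericytes, Abcc9 included, summed to 729 to 857 FPKM in the controls and 709 to 786 FPKM in CM-RevDKO. No other of them was called. Des alone held 474 of the mean sum of 799 FPKM in the controls and 424 of 748 FPKM in CM-RevDKO. The sum thus says little about the other markers, and of the 12, 6 fold changes were above zero and 6 below. Abcc8, which encodes SUR1 and lies 3571 bases from Kcnj11, had 6.13 to 6.66 FPKM in the controls and 4.99 to 6.53 FPKM in CM-RevDKO (adjusted p = 0.513).

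Kcnj3 and Kcnj5 encode the pores of the acetylcholine-activated channel, which is most abundant in the atrium. Kcnj5 ranged from 18.3 to 21.2 FPKM in the controls and from 15.7 to 20.7 FPKM in CM-RevDKO (-0.09, adjusted p = 0.773). Kcnj3 stood at 3.67, 3.71 and 4.88 FPKM in the controls and at 2.38, 3.65 and 2.80 FPKM in CM-RevDKO. The CM-RevDKO values of Kcnj3 were all below the controls by a small margin (-0.37, 95% interval -0.74 to -0.00, adjusted p = 0.300). With atrial markers as a covariate the log2 fold change was 0.19 for Kcnj5 and -0.13 for Kcnj3 (limma adjusted p = 0.792 and 0.925). The part of atrial tissue in these values was not tested.

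Channels of the two-pore and the calcium- or sodium-activated classes had 3 genes each, and none passed. Kcnk3, the TASK family leak channel, was the most abundant potassium channel transcript in both groups, at 51.3, 61.7 and 61.2 FPKM in the controls and at 49.0, 50.6 and 54.9 FPKM in CM-RevDKO. Its groups overlapped (-0.17, 95% interval -0.41 to 0.08, adjusted p = 0.484), and Gm9899, also in the table, overlaps the gene. Kcnk2, a stretch-sensitive TREK channel, and Kcnk6 lay between 0.463 and 1.77 FPKM in all 6 libraries, with adjusted p = 0.772 and 0.937.

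The small-conductance calcium-activated pore Kcnn2 stood at 3.50, 2.99 and 2.94 FPKM in the controls and at 2.05, 2.00 and 2.50 FPKM in CM-RevDKO, without overlap (-0.38, 95% interval -0.67 to -0.09, adjusted p = 0.179). Its relative Kcnn1 overlapped between groups, with 2.66 to 3.56 FPKM in the controls and 2.58 to 2.79 FPKM in CM-RevDKO (adjusted p = 0.574). The sodium-activated pore Kcnt2 was spread within the controls, at 1.94, 0.746 and 1.14 FPKM, against 0.818, 1.01 and 0.744 FPKM in CM-RevDKO (adjusted p = 0.594). The 3 genes together summed to 7.23 to 8.10 FPKM in the controls and 5.56 to 6.04 FPKM in CM-RevDKO, and all 3 fold changes were below zero (median -0.26).

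**Figure D3:**
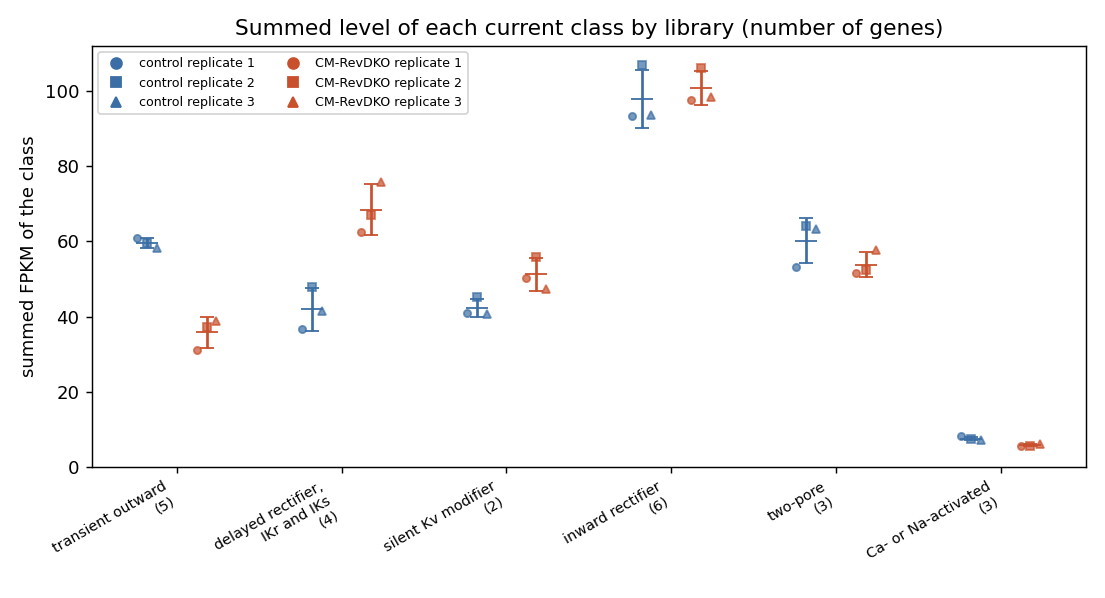
Summed FPKM of the genes of 6 current classes in each library, with the group mean and SD (n = 3 per group); the number of genes is in brackets. The transient outward sum was 31.1 to 38.9 FPKM in CM-RevDKO against 58.1 to 60.8 FPKM in control, the IKr and IKs sum was higher in CM-RevDKO, and the inward rectifier sums overlapped.

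Together the 27 genes summed to 314 to 355 FPKM in the controls and 326 to 346 FPKM in CM-RevDKO, so the total overlapped while its make-up differed. Kcnip2 held 15.4% of the total in the controls and 8.71% in CM-RevDKO. The 4 genes of IKr and IKs summed to 36.6 to 47.9 FPKM in the controls and 62.5 to 75.9 FPKM in CM-RevDKO, with Kcne1 the one member higher there. The fold changes of Kcnh2, Kcnq1 and Kcne4 were below zero.

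Ratios between subunits within a library do not depend on how the library was scaled. Kcne1 to Kcnq1 was 0.773, 1.07 and 0.608 in the controls and 5.98, 6.62 and 5.29 in CM-RevDKO, a difference of 2.90 between the groups' mean log2 ratios. Kcnj11 to Abcc9 was 0.735, 0.897 and 0.765 in the controls and 1.55, 1.33 and 1.41 in CM-RevDKO, a log2 difference of 0.84. Each of these ratios was wholly apart between the groups and gave p = 0.1 in a two-sided exact permutation test, the smallest that 3 against 3 allows (adjusted p = 0.2 over 6 ratios), so the design cannot reach 0.05 here.

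The ratio of Kcnip2 to Kcnd2 overlapped between groups, at 11.6 ± 2.46 in the controls and 9.80 ± 1.57 in CM-RevDKO (SD, n = 3 per group; log2 difference -0.23, exact permutation p = 0.5). Kcnd2 to Kcnd3 and Kcnj2 to Kcnj12 also overlapped (log2 differences 0.17 and -0.18, exact permutation p = 0.8 and 0.6).

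**Figure D4:**
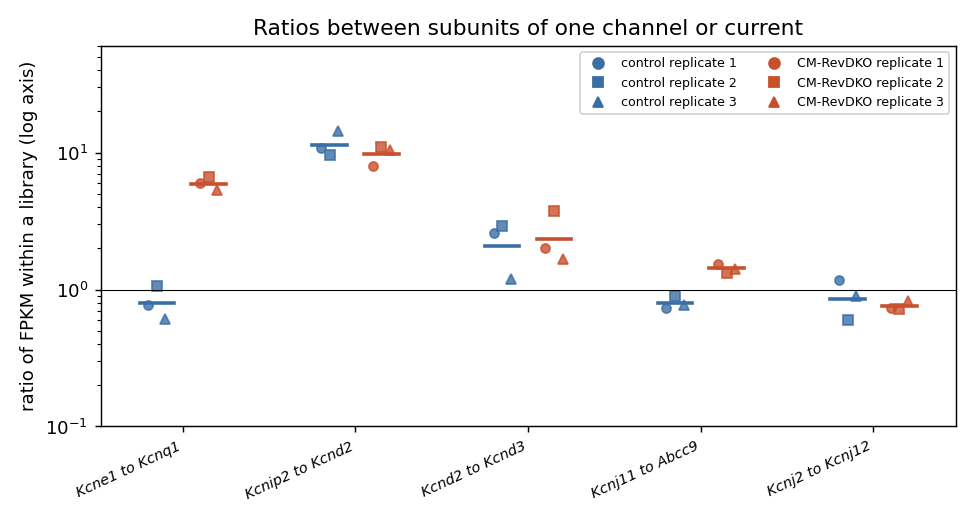
Ratio of FPKM of 2 subunit genes within each library on a log axis, with the geometric mean of each group as a bar and a line at 1. Kcne1 to Kcnq1 and Kcnj11 to Abcc9 are apart between the groups and the other 3 ratios overlap.

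Of 28 listed partners of potassium channels (sulfonylurea receptors, anchoring, calmodulin and trafficking proteins), 24 were tested; Abcc9 fell, none rose and 23 did not pass, with a median log2 fold change of -0.09. Dpp6, an accessory protein of Kv4 channels, was not analysed here. Of 18 listed transcription factors and other regulators of potassium channel genes in the heart, none passed with limma, 5 had an unadjusted p under 0.05 (16.6% of all genes tested), and the median was -0.16. Klf15, a clock-controlled factor known to control the rhythm of Kcnip2, stood at 21.5, 21.7 and 22.4 FPKM in the controls and at 14.2, 18.1 and 18.1 FPKM in CM-RevDKO. It was lower in every CM-RevDKO library without passing the test (-0.37, 95% interval -0.64 to -0.10, adjusted p = 0.162). With atrial markers as a covariate the log2 fold change of Klf15 was -0.12 (adjusted p = 0.887). The other regulators with an unadjusted p under 0.05 were Nkx2-5 and Gata4, which were higher, and Nr3c1 and Ppargc1a, which were lower. Their limma adjusted p was 0.0614, 0.184, 0.0730 and 0.134, in that order. Any link of Klf15 to Kcnip2 was not tested. Irx5, a repressor of Kcnd2, overlapped between groups (3.72 against 3.18 FPKM, adjusted p = 0.710).

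RefSeq promoter windows (250 bases before to 50 after a gene's start, GRCm38.p6) were found for 17 of the 27 genes, 23 windows in all. Both strands were searched for AGGTCA, the hexamer core of REV-ERB and ROR sites, for the same core with its A/T-rich flank, for the D-box bound by E4BP4 and its relatives (TTACATAA, TTACGTAA, TTATATAA or TTATGTAA), and for the E-box CACGTG bound by the clock's activators. AGGTCA was in none of the 23 windows (95% exact interval 0 to 14.82%) and in 12.54% of the 11152 windows of genes in the table. That interval includes the share of all windows, so a lower share in this family was not shown. It also counts windows of the same gene as independent and may thus be too narrow. The D-box was in none of the 23 and in 0.9864% of all windows, and the flanked core in none and in 0.1973%. The E-box was in 2 of the 23 windows (8.696%) and in 9.819% of all windows. A motif missing here says only that these letters are not in this window. Kcnip2 was the one called member with a window, and it held none of these motifs.

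The windows with the E-box belonged to Kcnj2 and Kcne4, neither of which differed past the test. Their 250 bases before the start are shown to place the E-box. Its share of the family's windows (8.696%) was near that of all windows (9.819%), so it is not a trait of the family. Both are on the plus strand of GRCm38.p6, chr11:111065914-111066163 for Kcnj2 and chr1:78816661-78816910 for Kcne4. Capitals mark the E-box.
Kcnj2: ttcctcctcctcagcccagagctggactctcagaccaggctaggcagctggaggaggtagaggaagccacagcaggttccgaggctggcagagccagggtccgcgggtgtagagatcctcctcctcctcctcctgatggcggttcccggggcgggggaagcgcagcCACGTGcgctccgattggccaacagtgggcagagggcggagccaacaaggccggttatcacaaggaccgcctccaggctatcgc
Kcne4: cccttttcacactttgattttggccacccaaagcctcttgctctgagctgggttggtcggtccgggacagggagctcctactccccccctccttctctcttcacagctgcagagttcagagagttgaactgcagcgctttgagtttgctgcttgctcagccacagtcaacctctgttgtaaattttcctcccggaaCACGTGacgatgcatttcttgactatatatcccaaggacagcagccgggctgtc
The E-box lies 84 to 79 bases before the start of Kcnj2 and 54 to 49 bases before that of Kcne4. The upstream sequence of Kcnj2 has a GC content of 65.6% with 14 CpG dinucleotides, and that of Kcne4 has 53.2% with 7.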

How the data were processed

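RNA values came from 6 heart libraries, 3 per group; 24 samples of other assays in the series of 30 were not analysed here. The authors deposited 1 table, in which 13575 genes each have a value for every library, read here as FPKM; its header names no unit, and TPM has the same form. Per the submitters' processing notes, HISAT2, StringTie and mm10 were used (versions and strand setting: not given in the sources used here). Group and replicate number in the names of the 6 columns matched the labels. Depth is unknown, so no counting interval is given.

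The filter kept a mean of 0.5 FPKM or more, and values were fitted as log2(FPKM + 1) with limma 3.58.1 in R 4.3.3 (lmFit, eBayes with trend, group only; two-sided, Benjamini-Hochberg over the 13256 genes, threshold 0.05). Adjusted p-values of single genes come from this fit. In simulated data with 200 changed genes, not drawn from the lowest levels, the procedure recovered 20.6% of log2 changes of 0.5. It recovered 69.25% of changes of 1 and 94.85% of changes of 2. A gene that did not pass may thus still differ. Ratios were tested by exact permutation. Coordinates and promoters come from RefSeq on GRCm38.p6, 1-based.

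The text names every potassium channel gene past the test, the genes of the main mouse cardiac currents, the 3 most abundant genes of each class and the 5 others with the smallest p; 2 members are counted in totals and not reported here by name. It names partners and regulators past the test and Abcc8, Abcc9, Dpp6, Klf15 and Irx5. The other regulators with an unadjusted p under 0.05 were added beside Klf15 after values were seen. Rcan1 and Smim11 lie outside this rule and were chosen by position after values were seen. The members and lists were chosen with earlier results of these data known. Alternatives changed the pseudocount, filter, scaling, replicate block, an atrial covariate and which libraries were included.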

Additional observations from a re-analysis of the deposited data

How the results depend on the processing

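The calls of Kcne1, Kcnip2 and Kcnv2 held under a pseudocount of 0.1, other filters on low values, quantile normalization and both other scalings. Scaled without mitochondrially encoded genes, 35.8% of all calls were higher, against 50.3% as deposited. Correlations of deviations between same-numbered libraries were -0.04, -0.06 and 0.09, within the range of -0.09 to 0.11 between unlike-numbered ones. They gave no sign that replicate numbers pair the samples, but so few libraries cannot exclude it. With a replicate block, 69 genes were called higher and 46 lower (167 and 165 without it). Kcne1 was still called (adjusted p = 0.0134), and 0 potassium channel genes and 0 partners were called lower. Kcnip2 then had limma adjusted p = 0.0704, Kcnv2 0.0557 and Abcc9 0.0552.

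With the atrial covariate 19 genes were called higher and 8 lower, with control 2 and CM-RevDKO 1 both left out 70 and 35, and with CM-RevDKO 1 and 2 both left out 10 and 11. In each of these, 0 potassium channel genes and 0 partners were called lower. In the last, 0 potassium channel genes were called higher, in a fit where the single CM-RevDKO library is assumed to vary like the controls. Leaving out 1 library at a time gave 70 to 188 genes higher and 47 to 134 lower, 1 to 2 potassium channel genes higher and 1 to 2 lower, 0 to 1 partners lower and 0 to 1 regulators higher.

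Median log2 fold changes that moved were as follows. With a pseudocount of 0.1 they were -0.44 (calcium- and sodium-activated) and -1.07 (silent modifiers). With the atrial covariate they were -0.35 (calcium- and sodium-activated) and 0.15 (inward rectifiers). With control 2 and CM-RevDKO 1 left out they were -0.083 (all 27 genes) and -0.38 (calcium- and sodium-activated). With CM-RevDKO 1 and 2 left out the transient outward median was -0.16. Over single libraries left out, the calcium- and sodium-activated median ran from -0.41 to -0.22 and the transient outward median from -0.46 to -0.27. The cause of these shifts was not tested.

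Signs turned only for genes and ratios that were not called. Kcnj8 turned to -0.022 under quantile normalization, -0.055 without mitochondrially encoded genes and -0.034 under the median ratio. With the atrial covariate Kcnj8 was -0.15, Kcnj5 0.19, Kcnk2 -0.044, Kcnj2 0.11 and Kcnip3 0.050. With control 2 and CM-RevDKO 1 left out Kcnj8 was -0.072, Kcnj5 0.075, Kcnk2 -0.011 and Kcnk6 0.053, and with CM-RevDKO 1 and 2 left out Kcnq1 was 0.060, Kcnj8 -0.22, Kcnj2 0.083 and Abcc8 0.040. Over single libraries left out, Kcnj8 ran from -0.063 to 0.13, Kcnj5 from -0.18 to 0.011, Kcnj2 from -0.10 to 0.068, Kcna5 from -0.27 to 0.053, Kcnk6 from -0.13 to 0.083 and Kcne4 from -0.23 to 0.082. The log2 ratio difference of Kcnd2 to Kcnd3 ran from -0.23 to 0.42 and that of Kcnj2 to Kcnj12 from -0.44 to 0.051; the first was -0.0055 with a pseudocount of 1.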
